A study of Drosophila melanogaster with 3 samples.

Results

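Peaks of the transcription factor NfI were described around cabut (cbt) and members of the Jun N-terminal kinase (JNK) pathway, 7 genes in all. The pathway members were Jun-related antigen (Jra), kayak (kay), puckered (puc), basket (bsk), hemipterous (hep) and misshapen (msn). With cbt they are 7 of the 13945 protein-coding genes annotated on the chromosome arms 2L, 2R, 3L, 3R, 4 and X. The genes, with cbt added to the pathway members, were chosen with the peak positions and signals of these lists already known. Their counts, signals and ranks are therefore a description and no test is given. The region of a gene is its annotated body plus 10 kb on each side, and a peak was placed in it by its summit. Across the 7 regions there were 40 of the 5806 peaks of the optimal list, the deposited list kept by the irreproducible discovery rate, which measures how well peak ranks repeat between replicates.

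In the JNK pathway a cascade of kinases runs from upstream kinases such as Misshapen, through the JNK kinase Hemipterous, to the fly JNK, Basket. Basket phosphorylates Jun (Jra), which pairs with Fos (Kayak) as the dimer AP-1, and the phosphatase Puckered, itself an AP-1 target gene, feeds back on Basket. Cabut is a Krüppel-like zinc-finger factor that acts with this pathway when the embryonic epidermis closes over the back of the embryo, and in larvae it also responds to dietary sugar. NfI belongs to the nuclear factor I family, whose vertebrate members bind a palindrome made of TTGGC and its complement.

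Chromatin immunoprecipitation and sequencing (ChIP-seq) had been done on Drosophila melanogaster embryos at 12 to 24 h, taken whole and with both sexes pooled, from a transgenic line that stably carries NfI with green fluorescent protein at its C terminus. The libraries, 3 in number, are those of biological replicates 2, 3 and 4 in a single group, so there is no untagged, mutant or other-stage group. The sample descriptions call each library an input control, whereas the assay title and the antibody label name an NfI ChIP-seq, and the libraries were treated as immunoprecipitates. A separate age entry is far longer than 24 h and was not used. All cell types of the embryo are pooled, a peak says nothing of the cells it came from, and no expression was measured, so the tissue could not be checked by its markers. Each replicate list holds 30000 peaks, background included, and 13037, 8464 and 5138 of them in replicates 2, 3 and 4 have a q-value of at most 0.01. Library depth is unknown, since only peaks and no read counts are given.

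The rank of a peak is its place by deposited signal, from 1 for the strongest. Its relative signal is the deposited signal in a replicate divided by the median of the 5806 strongest peaks of that replicate, so that 1 is the level of a typical strong peak. It counts as repeated where a peak among the 5806 strongest of a replicate overlaps it by at least 1 bp. A promoter summit lies within 500 bp of an annotated transcription start site (TSS), and all other summits are called distal.

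The sequences under 8 of the peaks are printed as examples, not all of them of high rank. The peaks are both strong cbt peaks, the kay peak that holds an AP-1 site, and peaks inside or just before kay, puc, hep and msn. The sequences were read from the RefSeq sequence of dm6, plus strand, 5' to 3', as 100 bases on each side of the summit. For the first puc start site only the 81 bases before the TSS are given. Capitals mark a match to a searched motif on either strand. These are TTGGCA in the cbt promoter, TGAGTCA (an AP-1 site) and TGCCAA (the complement of TTGGCA) upstream of kay, GGTCACACT before puc, CAGCTG in hep and CAGGTAG in msn. The 3 windows printed without capitals held none of the motifs searched.
cbt distal peak, 2L:480957-481157: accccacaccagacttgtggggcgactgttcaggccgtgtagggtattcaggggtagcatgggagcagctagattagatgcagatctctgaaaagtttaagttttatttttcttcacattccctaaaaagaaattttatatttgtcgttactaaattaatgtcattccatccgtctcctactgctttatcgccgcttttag
cbt promoter peak, 2L:479977-480177: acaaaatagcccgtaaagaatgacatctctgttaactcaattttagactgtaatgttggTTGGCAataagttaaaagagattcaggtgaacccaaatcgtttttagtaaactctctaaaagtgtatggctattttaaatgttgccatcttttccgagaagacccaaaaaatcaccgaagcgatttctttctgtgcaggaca
kay upstream peak, 3R:29763215-29763415: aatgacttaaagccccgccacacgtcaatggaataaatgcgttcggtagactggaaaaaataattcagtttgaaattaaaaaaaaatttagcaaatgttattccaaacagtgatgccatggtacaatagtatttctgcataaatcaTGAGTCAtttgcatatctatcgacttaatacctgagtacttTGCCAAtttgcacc
kay intron peak, 3R:29773909-29774109: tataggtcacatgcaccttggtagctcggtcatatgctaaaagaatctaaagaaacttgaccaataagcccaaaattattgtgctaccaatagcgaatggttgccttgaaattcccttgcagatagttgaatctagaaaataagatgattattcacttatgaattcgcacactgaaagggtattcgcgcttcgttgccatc
puc upstream of the first start site, 3R:8105251-8105331: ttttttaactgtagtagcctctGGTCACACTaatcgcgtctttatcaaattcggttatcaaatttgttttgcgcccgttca
puc intragenic peak, 3R:8113071-8113271: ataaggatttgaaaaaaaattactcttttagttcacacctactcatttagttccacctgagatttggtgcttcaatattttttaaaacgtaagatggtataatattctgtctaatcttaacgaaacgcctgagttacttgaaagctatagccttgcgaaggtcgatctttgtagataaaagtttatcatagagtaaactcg
hep intron peak, X:13088142-13088342: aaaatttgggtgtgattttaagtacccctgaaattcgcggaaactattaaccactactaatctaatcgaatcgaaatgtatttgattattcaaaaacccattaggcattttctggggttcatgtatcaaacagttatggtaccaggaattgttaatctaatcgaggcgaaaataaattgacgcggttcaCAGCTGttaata
msn intron peak, 3L:2581354-2581554: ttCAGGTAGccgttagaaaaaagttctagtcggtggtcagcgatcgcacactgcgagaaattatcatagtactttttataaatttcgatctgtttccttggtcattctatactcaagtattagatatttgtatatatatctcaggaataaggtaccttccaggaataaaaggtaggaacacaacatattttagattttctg

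The strongest peak of the 7 regions lay upstream of cbt. It was at 2L:480884-481294, its summit 1369 bp upstream of the single cbt TSS, and it ranked 5 of the 5806 optimal peaks with a deposited signal of 4745. Replicates 2, 3 and 4 gave it a relative signal of 14.6, 15.0 and 18.7 (mean 16.1 ± 2.29, SD, n = 3) and a rank of 7, 9 and 4. All 3 replicates were thus far above any other peak of the 7 regions, whose values did not reach the lowest of these. The next highest peak lay closer to the same gene, 389 bp upstream of the cbt TSS, and was the only optimal summit at the cbt promoter. This promoter peak ranked 149 and had a relative signal of 4.54, 5.30 and 6.03, a mean of 5.29 ± 0.749 (SD, n = 3).

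The cbt gene (FBgn0043364, 2L:476446-479688, minus strand) lies inside u-shaped (ush), which runs on the opposite strand and encodes a cofactor of GATA factors. Both peaks upstream of cbt therefore also lie in intron 1 of ush, an intron present in 2 of its 5 annotated transcripts. The summit of the strongest peak was 1369 bp from the TSS of cbt and 4837 bp from the nearest TSS of ush. Peak position alone does not assign it to either gene. In all, 9 optimal summits fell in the 23.2 kb region of cbt, or 0.387 per kb, against 0.0434 per kb over the 6 arms. Of all protein-coding genes, 76 (0.545%) had 9 or more summits in their own region. No summit fell in the body of cbt itself.

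The other 7 peaks of the cbt region fell into 2 groups. One group, of 3 peaks, lay further upstream of cbt in ush intron 1, at 2239, 4736 and 6193 bp from the cbt TSS. The nearest of them had a relative signal of 2.27, 2.37 and 2.02 (2.22 ± 0.183, SD, n = 3) and the farthest 1.90, 1.93 and 1.66 (1.83 ± 0.149). The middle one was weak, at 0.864, 0.467 and 0.503, and was the only peak of the cbt region that was not among the strongest of all 3 replicates. The remaining 4 lay beyond the 3' end of cbt, past MED15, at the start of CG4297, 2 of them at its promoters and 2 in its intron 1. The strongest of these 4, a CG4297 promoter peak of rank 344, had a relative signal of 2.77, 4.36 and 4.06 (3.73 ± 0.846, SD, n = 3). Of the 9 peaks, 8 were repeated in all 3 replicates.

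**Figure D1:**
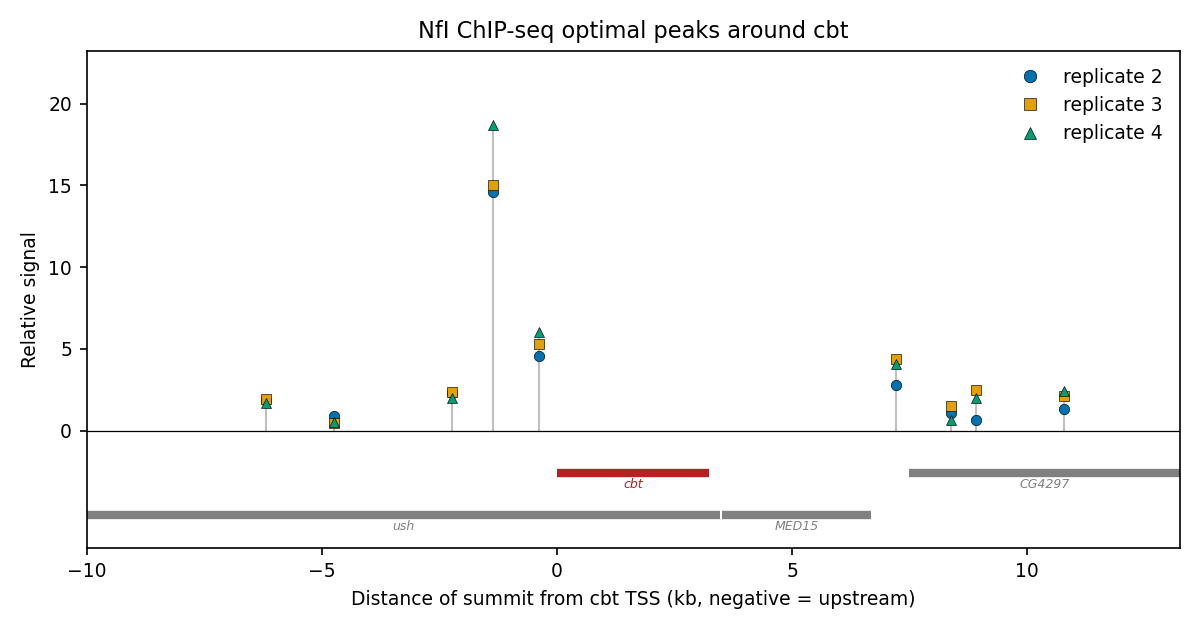
Relative signal (y axis) of the 9 optimal peaks of the cbt region in each replicate, against the distance of the summit from the cbt TSS in kb (x axis, negative values upstream). Bars under the axis show genes, with cbt in red in the upper row and genes of the opposite strand in the lower row. The peak at 1369 bp upstream stands at 14.6 to 18.7 and the promoter peak at 4.54 to 6.03, both within the bar of ush.

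Among all optimal peaks, those with the values closest to the strongest cbt peak over the 3 replicates were found at Lk6, Art3 and PNPase. Likeness was the mean absolute difference of log2 relative signal. The peak nearest to Lk6, a kinase gene, ranked 6 and lay in an intron 968 bp from a TSS, with a mean difference of 0.07 and relative signals of 13.4, 14.6 and 17.9. The peak shared by the promoters of Art3 and mRpS10 ranked 10 and differed by 0.21, and the PNPase promoter peak ranked 11 and differed by 0.22. These values compare 3 replicates of 1 group and say only that the peaks are of like height.

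The puc gene, which encodes the JNK phosphatase, had 9 optimal summits as well, so that the same 0.545% of genes had as many or more (FBgn0243512, 3R:8105332-8122294, plus strand, a region of 37.0 kb). Unlike at cbt, 7 of the 9 lay in the gene body, which is 16963 bp long at puc and 3243 bp at cbt. The 2 annotated puc TSSs each had a summit close by, 19 bp downstream of the first and 35 bp downstream of the second, both in the 5' UTR. These were weak peaks, ranked 2966 and 4514. The relative signal of the first was 1.28, 0.434 and 0.681 in replicates 2, 3 and 4, and that of the second was 0.686, 0.410 and 0.360. Replicate 2 was the highest at both. The first was among the strongest of 2 replicates and the second among those of 1, so that neither was repeated in all 3.

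The strongest puc peaks lay further inside the gene. The strongest, rank 926 and 6683 bp downstream of the second TSS, had a relative signal of 1.71, 2.70 and 1.84 (2.09 ± 0.538, SD, n = 3), above the first puc promoter peak in each replicate. It lay in an exon of lncRNA:CR44331, a non-coding gene on the opposite strand within puc. A second peak, rank 1395, lay 111 bp upstream of the TSS of lncRNA:CR44331 in puc intron 3, at 1.46, 1.87 and 1.71. Intron 2 held a peak of rank 1808 (1.17, 1.25 and 2.00), and intron 3 held a pair 575 bp apart, ranks 2291 and 5335. The 2 summits beyond the 3' end were at the promoter of CG7878 and at the promoter shared by CG9667 and Arl8, a gene for a lysosomal small GTPase.

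The Fos gene kay (FBgn0001297, 3R:29765995-29794113, plus strand) has 4 annotated TSSs, none with an optimal summit within 500 bp. Inside the gene the optimal list held a single peak, rank 1289, in intron 1 and 1117 bp downstream of the second TSS. Its relative signal was 1.72, 1.62 and 1.55 (1.63 ± 0.0879, SD, n = 3), a narrow spread. The peak that holds the AP-1 site lay 2680 bp upstream of the first TSS and ranked 4881. It had no peak in replicate 2 and 1.22 and 1.03 in replicates 3 and 4. The other 2 kay summits were at shared promoters downstream of the gene. One is that of Drice, which encodes an effector caspase, and Rnb, with a rank of 3265. The other is that of Etfb and CG7789, with a rank of 825 and a relative signal of 1.93, 2.19 and 2.64.

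At Jra, the Jun gene (FBgn0001291, 2R:10096480-10098556, plus strand), no optimal summit lay in the gene body or at its TSSs. All 4 summits of its region were downstream, at 14-3-3zeta, which encodes a phosphoserine-binding adaptor protein, and the divergent gene RpLP0-like. The strongest, rank 1206, lay 2 bp upstream of a 14-3-3zeta TSS and had a relative signal of 1.92, 1.46 and 1.87 (1.75 ± 0.254, SD, n = 3). The remaining 3 had no peak in the whole list of replicate 4. Values of 1.51 and 0.668, 0.632 and 0.564, and 0.814 and 1.01 were measured for them in replicates 2 and 3.

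The kinase genes differed in where their peaks lay. msn, which encodes a Ste20-family kinase that acts upstream of JNK, had 10 summits in a region of 51.7 kb (FBgn0010909, 3L:2554847-2586540, minus strand), and 44 protein-coding genes (0.316%) had as many or more. The region is the longest of the 7, and per kb its count of 0.193 was lower than those of cbt and puc. Of the 10, 5 were in msn introns 2 and 3, all distal. The strongest of these, rank 891 and 4800 bp downstream of the nearest msn TSS, had a relative signal of 1.79, 2.41 and 2.44 (2.22 ± 0.368, SD, n = 3). The intron 2 peak 1946 bp from that TSS was about as high, at 1.74, 2.28 and 1.90. Another intron 2 peak was less even, at 0.756 in replicate 2 and 2.10 and 2.73 in replicates 3 and 4.

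The strongest peak of the msn region was at a neighbouring gene. It lay 22 bp upstream of the TSS of RpL8, which encodes a ribosomal protein, and 894 bp upstream of the first msn TSS. Its relative signal was 3.23 and 3.09 in replicates 2 and 3 and 5.97 in replicate 4, a mean of 4.10 ± 1.62 (SD, n = 3), with a rank of 290. Next to RpL8, dos, which encodes a scaffold protein of receptor tyrosine kinase signalling, had a promoter peak (rank 3556) and 2 peaks in its 5' UTR (ranks 2030 and 5123). The last of the 10, rank 3212, was in intron 1 of Spn on the other side of msn and had no peak in replicate 4.

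hep, which encodes the JNK kinase, had 4 summits (FBgn0010303, X:13079205-13090434, minus strand). The same count was found at kay and Jra, and 2133 protein-coding genes (15.3%) had 4 or more. Both peaks in the gene were in intron 1 and of middle or low rank, 2642 and 5144. The first had a relative signal of 0.734, 1.5 and 0.873 (1.04 ± 0.410, SD, n = 3), and the second 0.746 and 0.649 with no peak in replicate 4. The strongest peak of the region was 9685 bp upstream of the hep TSS in intron 2 of Chpf, rank 807, with 1.66, 2.44 and 3.11 (2.40 ± 0.726). It was also the summit closest to the inside of a region edge, at 315 bp. The other was at the promoter of CG2200, and between this gene and hep lies lic, which encodes a p38 kinase kinase.

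**Figure D2:**
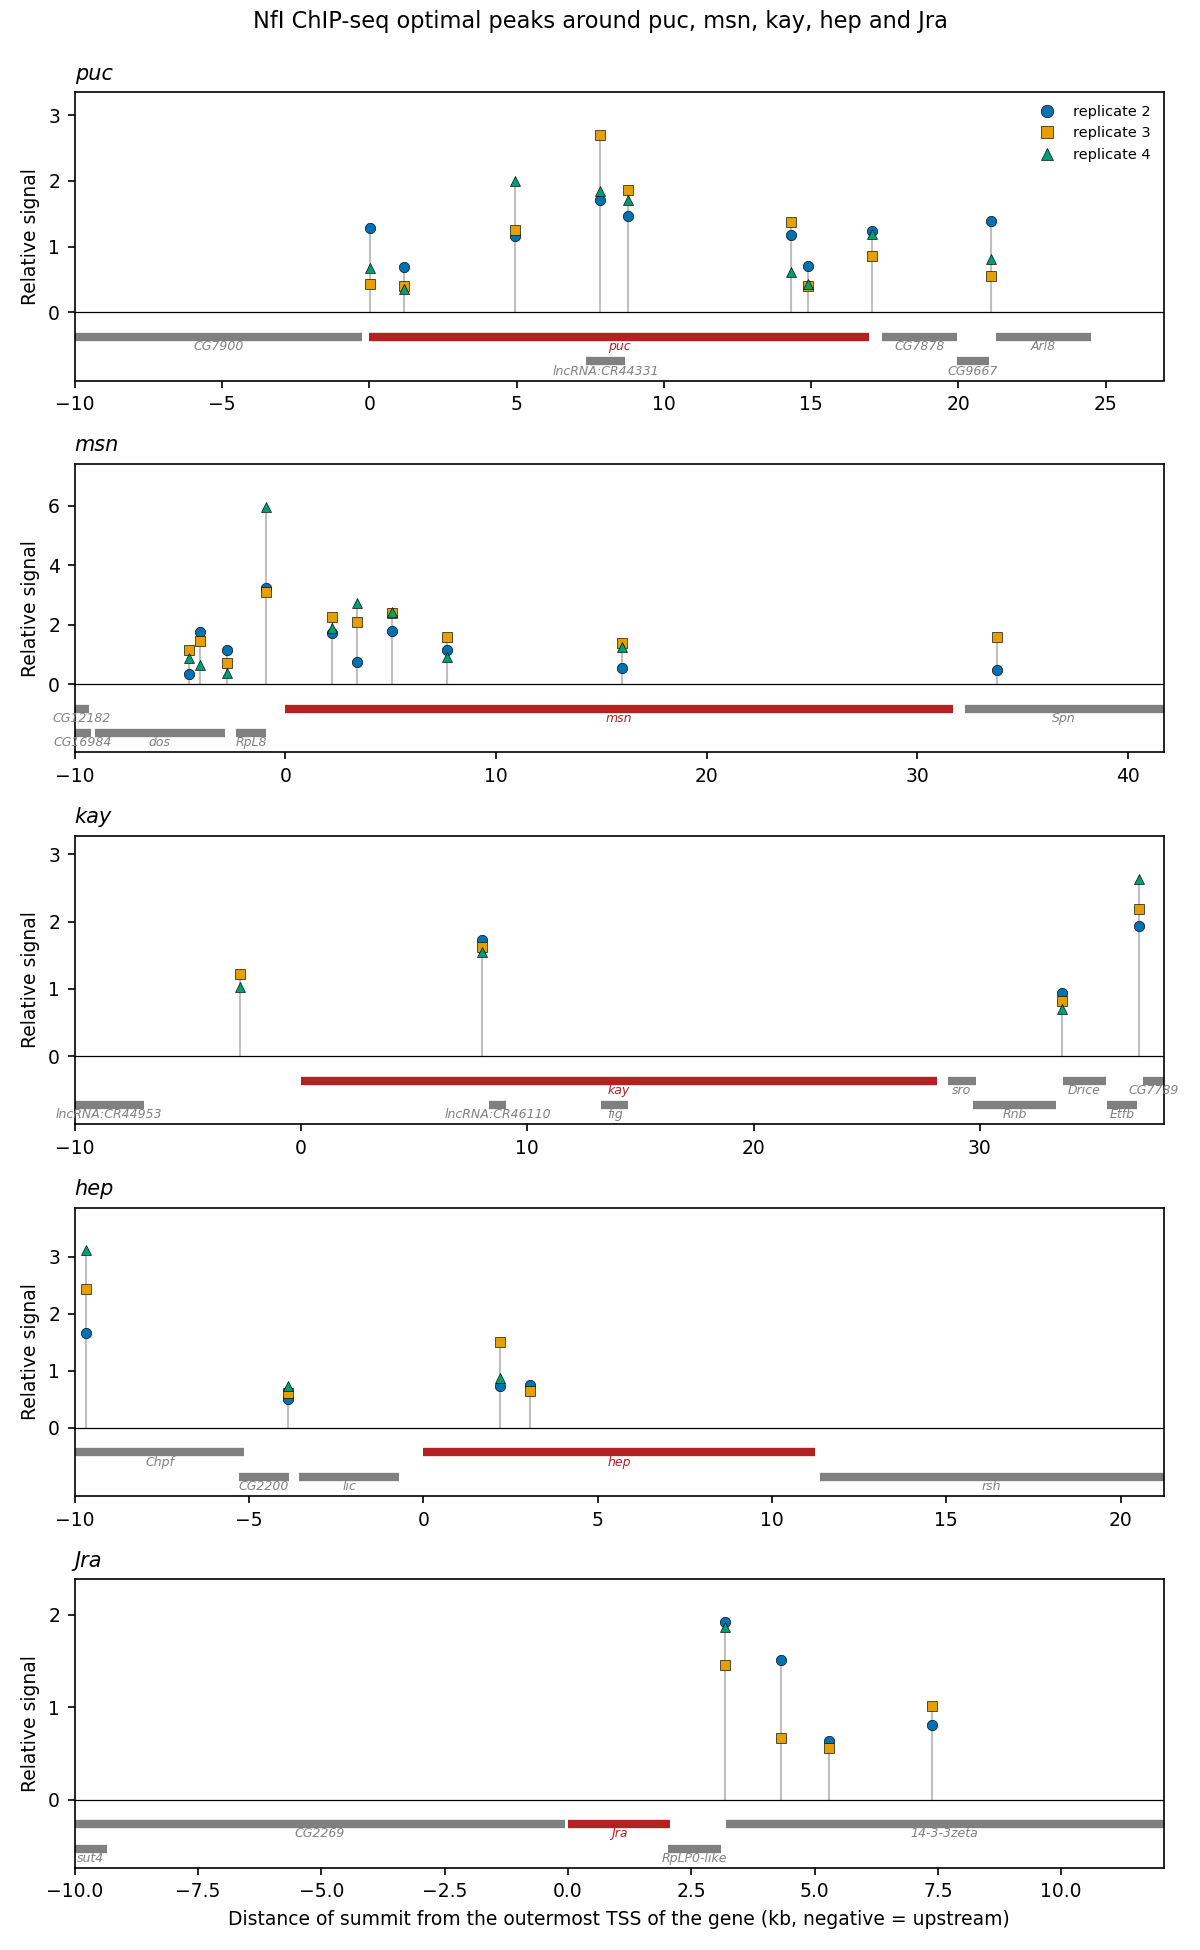
Relative signal (y axis) of the optimal peaks in each replicate against the distance of the summit in kb from the outermost TSS of puc, msn, kay, hep and Jra (x axes, negative values upstream), with genes as bars and the named gene in red. A peak with fewer than 3 symbols has no overlapping peak in the missing replicate. In puc 7 of 9 summits lie over the red bar, in msn 5 of 10 and in Jra none, and the tallest msn symbol group, at 3.09 to 5.97, stands at the start of RpL8.

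bsk, the JNK gene itself (FBgn0000229, 2L:10247502-10250501, minus strand), was the only one of the 7 without an optimal summit in its region. The nearest summit was 10768 bp from the gene, 768 bp beyond the region edge, and ranked 2041. The replicates differed at bsk. Replicate 2 listed 14 peaks in the region, of which the strongest, at 2L:10249612-10250041 and 85 bp from a bsk TSS, had a relative signal of 1.26, a rank of 2150 and a −log10 q-value of 4.24. Replicate 3 listed 2 peaks, both near mthl15 and the higher at 0.596, and replicate 4 listed 0. The lowest relative signal that entered the lists was 0.194 in replicate 3 and 0.230 in replicate 4, so a bsk promoter peak in either was under that level if present. The pooled list held 1 peak in the region, rank 7010, near mthl15.

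Set against other genes, 6 of the 7 had an optimal summit in their region, where 69.3% of protein-coding genes did. With the whole replicate lists the count was 7 of 7 in replicate 2 (88.9% of protein-coding genes), 7 of 7 in replicate 3 (94.1%) and 6 of 7, all but bsk, in replicate 4 (93.8%). At their own promoters, 2 of the 7, cbt and puc, had an optimal summit, against 26.1% of protein-coding genes. Keeping only optimal peaks repeated in all 3 replicates left 1 of the 7, cbt. Keeping those repeated in replicates 2 and 4 left both, and the other pairs of replicates left cbt. The share of all protein-coding genes under these filters was not counted, so these counts cannot be set against the 26.1%. Among the strongest peaks of single replicates, 4 of 7 had an own-promoter peak in replicate 2 (cbt, kay, puc and bsk; 29.2% of genes). In replicate 3 there were 2 of 7 (cbt and kay; 21.6%), and in replicate 4 there were 3 of 7 (cbt, puc and msn; 22.5%). cbt alone was called in all 3, and the share of all protein-coding genes called in all 3 was not counted. The called cbt summits lay 346, 353 and 409 bp from the TSS in replicates 2, 3 and 4. They would not count as promoter summits at a distance of 250 bp. The share from the optimal list is near its background.

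Of the 5 genes without an optimal summit at an own promoter, each had such a peak in the whole list of at least 1 replicate. These lists hold 30000 peaks each, background included. The share of all protein-coding genes with an own-promoter peak in them was not counted, so this says nothing particular of the 5 genes. The highest own-promoter peak of kay had 1.00 in replicate 2, 0.628 in replicate 3 and 0.352 in replicate 4, each at a different TSS. That of msn was lowest in replicate 2, at 0.289, 0.505 and 0.729, and lay within 63 bp of the first TSS in each list. hep had 0.228 and 0.576 in replicates 2 and 3, and Jra 0.447 and 0.208, with none in replicate 4. No replicate was thus the highest at every promoter. Several of these entries may be background. The −log10 q-value was 0.30 for Jra in replicate 3 and 0.57 for kay in replicate 4. In replicate 2 it was 1.09 for hep and 1.80 for msn. Those entries did not reach the q-value limit used above to count peaks in the replicate lists, whereas the other entries given here did.

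**Figure D3:**
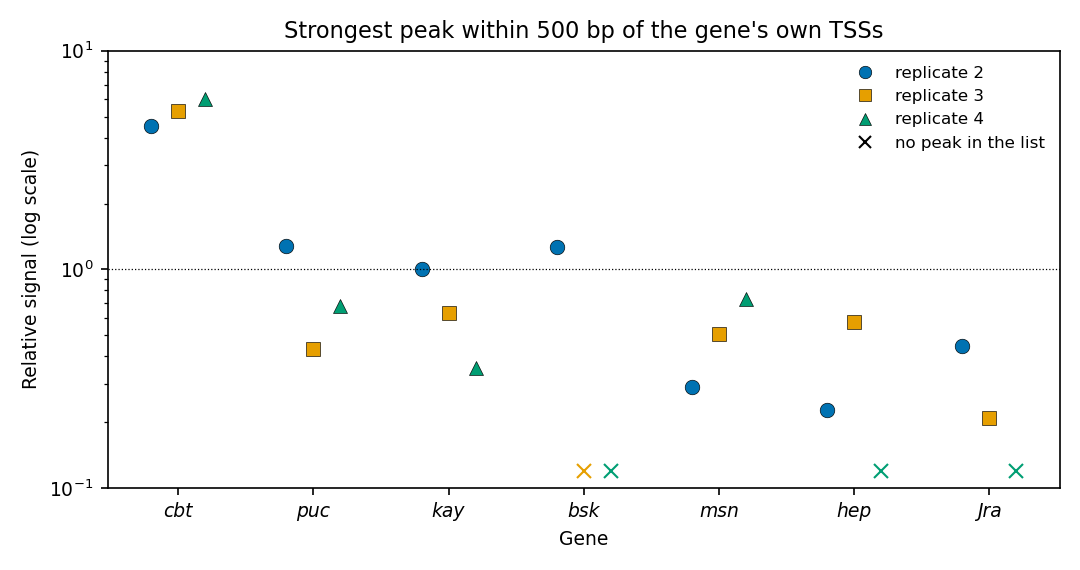
Relative signal (log y axis) of the strongest peak within 500 bp of a gene's own TSSs, for each of the 7 genes (x axis) and each replicate; a cross marks a list without such a peak, and the dotted line is 1. cbt stands at 4.54 to 6.03 in all 3 replicates, while the other genes stay at 1.28 or lower. Some of the lower symbols are entries that did not reach the q-value limit used to count peaks in the replicate lists.

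Over the 40 summits, 16 (40%) were at a promoter of any gene, where 53.6% of all 5806 optimal summits were, and 24 were distal. Of the 16, only 3 were at a promoter of one of the 7 genes themselves (1 at cbt and 2 at puc), and 13 were at promoters of other genes only. The distal summits were mostly intronic, 20 of 24, with 2 in a 5' UTR, 1 in a non-coding exon and 1 intergenic. The TSS nearest to the summit belonged to the gene whose region it was for 14 of the 40, and 15 lay in the body of that gene. The median rank was 2276 of 5806, and 11 (27.5%) ranked in the strongest 20% of the list. Among the 5806 strongest of the replicates, 25 (62.5%) were repeated in all 3, against 55.3% of all optimal peaks, 10 in 2 replicates and 5 in 1. Of the promoter summits, 9 were repeated in all 3 replicates, and 10 in both replicates 3 and 4. In the whole lists, 34 had an overlapping peak in all 3 replicates. For the intronic and other classes, the nearest TSS, the gene body and the whole lists, no share over all optimal peaks is given here. Those counts are therefore not shown to be particular to these regions.

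Promoter and distal peaks did not vary alike across replicates. The median relative signal of the promoter peaks was 1.34, 0.940 and 1.000 in replicates 2, 3 and 4, over 16, 16 and 14 matched peaks. That of the distal peaks was 1.17, 1.59 and 1.66, over 23, 24 and 21 matched peaks. The medians thus do not cover the same peaks in each replicate. Of the 20 distal peaks with a value in all 3 replicates, 12 were lowest and 4 highest in replicate 2. Of the 14 such promoter peaks, 7 were highest and 5 lowest in replicate 2. Over all optimal peaks, too, replicate 2 had the highest promoter median (1.22, 0.996 and 1.10) and the lowest distal median (0.820, 1.07 and 1.06). Replicate 2 is also the list with the most peaks at a q-value of at most 0.01, and its part in these values was not tested. At the limit of the optimal list, the weakest 2 of the 40 ranked 5335 (puc) and 5446 (Jra), with signals of 185 and 182. The strongest pooled peaks of the regions that were left out ranked 6133 and 6776, both at puc, with signals of 165 and 151.

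**Figure D4:**
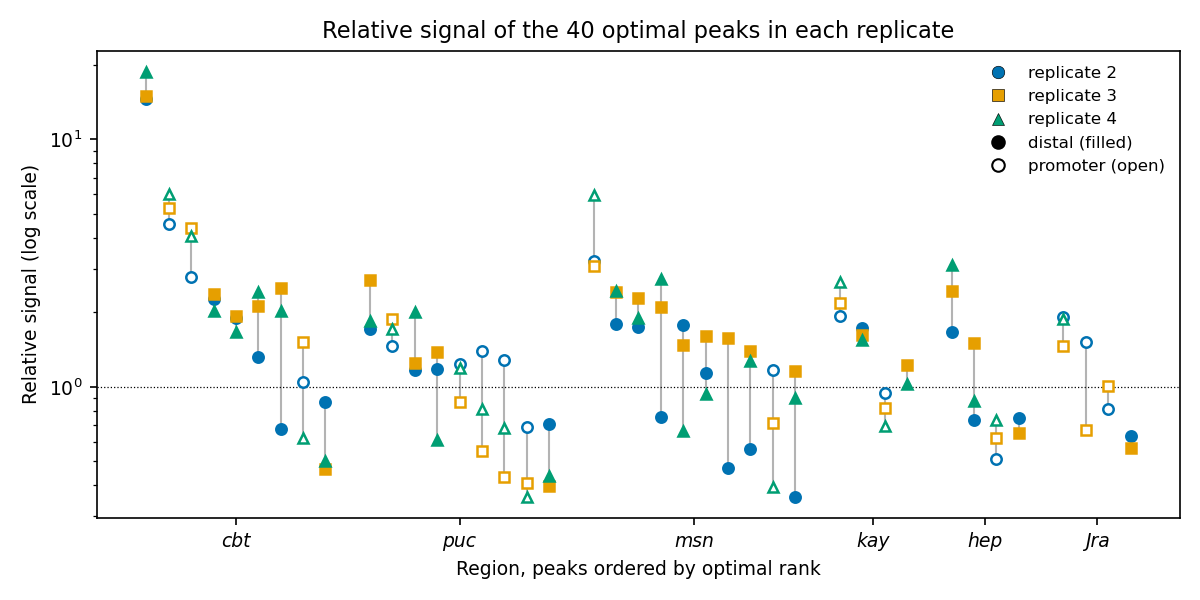
Relative signal (log y axis) of each of the 40 optimal peaks in each replicate, grouped by region and ordered by optimal rank within it (x axis); open symbols are promoter peaks, filled symbols distal peaks, and a grey line joins the replicates of a peak. The first cbt peak stands apart at 14.6 to 18.7, and the others reach at most 6.03.

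Motifs were counted in windows reaching 100 bases to each side of the 40 summits, on both strands. The AP-1 site TGANTCA was in 2 windows (5.0%), against 4.96% of all optimal windows and 4.61% of windows shifted by 1000 bp. These are the kay upstream window printed above, with the site 49 bp from the summit, and the Jra window near the fourth 14-3-3zeta TSS, with the site 93 bp from the summit. Both peaks lacked an overlapping peak in 1 replicate. With 50 bases on each side the count was 0 and with 200 it was 6. Among peaks repeated in all 3 replicates the count was 0, and among those repeated in a pair of replicates it was 0 or 1. The related site TGACGTCA was in 0 windows of the 40 and in 0.362% of all. The vertebrate NFI half-site TTGGC was in 15 (37.5%; 35.6% of all optimal and 43.8% of shifted windows). The longer TTGGCA, whose matches are also matches to TTGGC, was in 6 (15.0%; 13.4% and 15.2%), among them the cbt promoter window. The palindrome of TTGGC and GCCAA with 5 bases between them, which contains TTGGC, was in 0.

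Of the remaining motifs, TATCGATA, the site of the factor DREF, was in 2 windows (5.0%; 4.63% of all), at the CG2200 promoter near hep and the CG9667 and Arl8 promoter near puc. GGTCACACT was in 1 (2.50%; 2.34%), at the first puc TSS, and GGGCGG, a GC box of the kind bound by Krüppel-like factors, in 1 (2.50%; 3.86%), the weak peak in ush intron 1 upstream of cbt. CAGGTAG, the site of Zelda, was in 1 (2.50%; 0.827% of all optimal and 1.26% of shifted windows). This was the strongest msn intron peak, with the site 95 bp from the summit. GAGAGAG was in 3 (7.50%; 3.74%), CAGCTG in 2 (5.0%; 10.7%) and TAATTA in 4 (10%; 16.4%). None of the 12 motifs was found in 14 windows, including that of the strongest cbt peak. The median GC content was 36.3%, as for all optimal windows. A match is a run of letters, and its absence says nothing of what is bound there.

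Other genes of the pathway were taken from lists of 33 genes in 5 groups by role. These lists and those further below were chosen with earlier results of these data known. Their shares are therefore a description and cannot show enrichment. Of the 33, 16 (48.5%) had an optimal summit at an own promoter, beside the 26.1% of all protein-coding genes, and 27 (81.8%) had one in their region, beside 69.3% of all protein-coding genes. Counting only optimal peaks repeated in all 3 replicates gave 8. Counting those repeated in both other replicates gave 9 without replicate 2, 8 without replicate 3 and 11 without replicate 4. The share of all protein-coding genes under these filters was not counted, so these counts cannot be set against the 26.1%. Several of these promoters are shared with another gene, and a peak there belongs to neither in particular. The median number of summits in a region was 1.00 for the 33 genes, the same as for all genes. The genes with a promoter summit were 5 of the 7 ligand, receptor and adaptor genes, 4 of the 6 upstream kinases, 2 of the 4 small GTPases and both brakes. Of the 14 target genes, 3 (21.4%) had one, below the 26.1%.

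The ligand gene egr had a weak promoter peak of rank 4802, with relative signals of 0.560, 0.726 and 0.601, while its receptors grnd and wgn had none. The adaptor gene POSH, which encodes a scaffold protein of the pathway, had the strongest peak of this group, rank 181, with 4.42, 5.64 and 5.16, at a promoter shared with Ns2. Traf6 (rank 1135, shared with GIIIspla2), Tab2 (rank 1909, shared with mip40) and Traf4 (rank 5593, shared with lncRNA:CR45363) completed it. Among the upstream kinases, the JNK kinase gene Mkk4 stood highest at rank 73, with 6.70, 7.50 and 7.24 (7.15 ± 0.407, SD, n = 3), and shares its promoter with SLIRP2. Tak1 (rank 2855), Mekk1 (rank 2094) and wnd (rank 2694) were weaker. Mekk1 had 2.09 in replicate 2 and 0.602 and 0.512 in the others.

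Of the small GTPase genes, Mtl was at rank 25 with 10.9, 11.8 and 11.0 (11.2 ± 0.450, SD, n = 3), shared with CG5611, and Rac2 at rank 5051. The brakes were raw (rank 5367) and CYLD (rank 3052). Of the target genes, Atf3, which encodes a bZIP factor that can pair with Jun, was at rank 37 with 8.07, 9.44 and 11.0 (9.50 ± 1.46, SD, n = 3), with no other gene at that promoter. hid, a cell death gene, was at rank 2064 and chic, the profilin gene, at rank 5567. Only the strongest cbt peak, of all those in the 7 regions, exceeded these values of Atf3 and Mtl.

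Genes related to the 7 in other ways were mixed. Of 15 other genes for bZIP factors, the class of Jun and Fos, 9 (60%) had a promoter summit, led by Atf3, Irbp18 (rank 309, shared with APP-BP1) and Xbp1 (rank 652). Of 6 Krüppel-like and Sp relatives of cbt only Spps had one, of rank 4198, shared with CG13609. Of 4 genes listed for sugar sensing and metabolism, bigmax (rank 1226) and Pepck1 (rank 5557) had one. Both of these promoters are shared with another gene. Of 10 genes of other MAP kinase cascades, 3 (30%) had one, near the 26.1% of all protein-coding genes. Atf3 is counted both here and among the target genes.

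**Figure D5:**
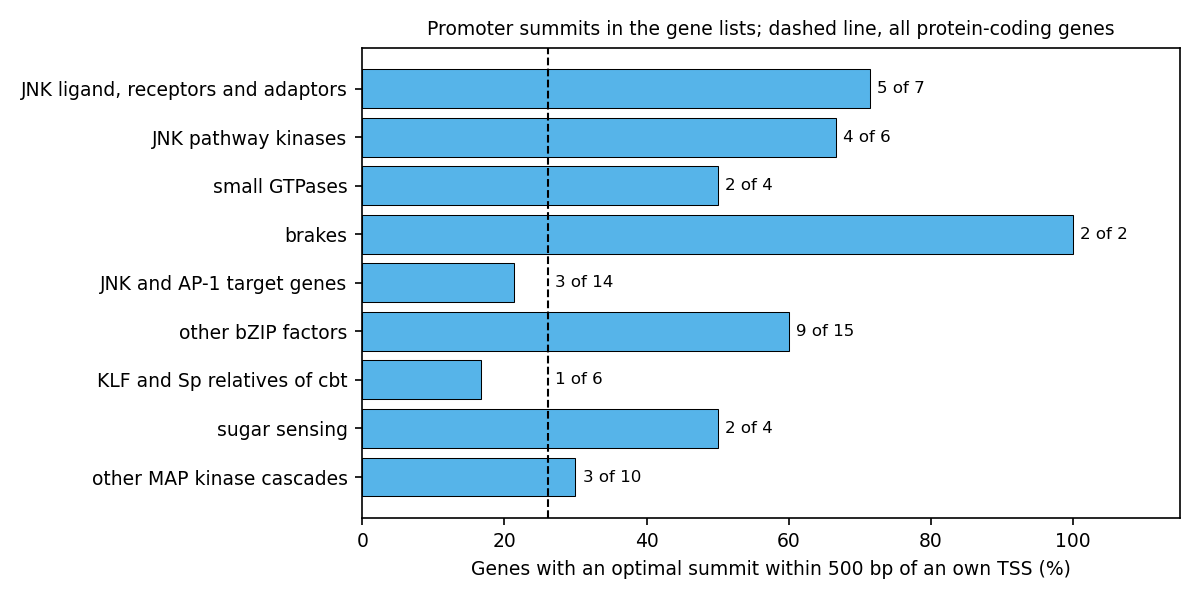
Percent of the genes of each list with an optimal summit within 500 bp of an own TSS (x axis, from 0), with the count beside each bar; the dashed line is the 26.1% of all protein-coding genes. Bars run from 16.7% for the relatives of cbt to 100% for the 2 brakes, and the lists hold 2 to 15 genes each. The lists were chosen with earlier results of these data known.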

How the data were processed

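The members and the gene lists were chosen with earlier results of these data known. Per the deposited listings, each replicate peak list came from that replicate's alignment against 1 common control, the pooled list from all 3 alignments, and the optimal list by the irreproducible discovery rate. The aligner and peak caller, not given in the sources used here, cannot be named. Peak signal was used as deposited by the authors, in an unstated scale, only to rank and scale peaks within a list. The significance is the deposited −log10 q-value, and was 4.09 for all 5806 optimal peaks. The optimal peaks are the 5806 strongest of the pooled list.

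Summits were set against the genes of Ensembl release 115 (BDGP assembly 6.54, whose coordinates are those of dm6), without transposable elements. Relative signals are means ± SD over 3 replicates, taken from the strongest overlapping replicate peak. Named were the 7 genes, other genes with a TSS at a summit in their regions, the 3 list genes with the strongest promoter summits (all where 6 or fewer, and all of the pathway list), and the 3 peaks most like the strongest. Alternatives were other flanks, promoter distances, windows, overlap rules and list lengths, and leaving out each replicate. Placement, matching and motif search were tested on simulated data. Python 3.11.15, pandas 2.3.3, numpy 2.4.6 and matplotlib 3.10.9 were used. No statistical test was made. The called genes of the list of other MAP kinase cascades are not reported here by name.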

Additional observations from a re-analysis of the deposited data

How the results depend on the processing

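Of 99 alternative values, 66 stayed close to the main value (counts within 1.5 times of it, signals within 1 SD), and 33 moved further. With 1 of 3 replicates left out, a mean signal stays within 1 SD whatever the data. Those values therefore say nothing of stability. The strongest peak is also that of the cbt region, and its values are counted under both. The 40 summits, 16 of them at promoters and 25 repeated in all 3 replicates, became 20, 7 and 15 with flanks of 2 kb. The strongest 50% of the optimal list left 26 summits, 10 at promoters, 1 gene with an own-promoter summit, 10 pathway list genes and 0 AP-1 windows. Peaks repeated in all 3 replicates left 25, 9, 1, 8 and 0. With promoters of 250 bp, 1 gene (puc) had an own-promoter summit. Keeping optimal peaks repeated in both remaining replicates after leaving out 1 gave 27 to 29 summits, which are by definition the repeated peaks. Of these summits, 10 to 12 were at promoters. The same settings gave 1 to 2 genes with an own-promoter summit, 8 to 11 pathway list genes and 0 to 1 AP-1 windows. The strongest peak had 14.8 to 16.8. These settings keep fewer peaks or bases, and the counts with a replicate left out are to be read against those repeated in all 3, since the repeat filter alone takes 40 summits to 25. Requiring overlap of 50% of both peaks left 15 repeated peaks, and the shorter replicate lists left 16. AP-1 windows numbered 0 with 50 and 6 with 200 bases on each side. Divided by the whole-list median, which includes background peaks, the strongest peak was 53.5. Of the 36 alternative values for the strongest peak of each region, the 6 that moved were of this kind. With flanks of 20 kb, 7 genes had a summit. The share of all protein-coding genes was not counted under these alternative settings, so the gene counts here have no background beside them. No paired analysis was possible because there is 1 group. With 3 replicates, no read counts and an optimal list that draws on every replicate, repeats are not independent of the list.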
